A study of Homo sapiens with 12 samples.

Results

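The core genes of the transforming growth factor-β (TGF-β) pathway were followed in QGP-1 and BON-1 cells, which are established lines of human pancreatic neuroendocrine tumors. These are the ligand genes TGFB1, TGFB2 and TGFB3, the receptor genes TGFBR1, TGFBR2 and TGFBR3, and SMAD2, SMAD3, SMAD4 and SMAD7, in all 10 of the 28008 genes in the count tables. The 10 genes were selected on the same contrast that is described here, treated against control cells in each line, and on their level in each line. Their values are therefore given as a description with no test.

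Both lines carried a tetracycline-inducible short hairpin RNA against MUC1 (MUC1shRNA), delivered with a puromycin-selected vector. The 4 groups were QGP-1 with vehicle, QGP-1 with doxycycline (DOX), BON-1 with vehicle and BON-1 with DOX, with 3 cultures in each and 12 libraries in all. Vehicle was DMSO, and DOX was given at 500 ng/mL for 7 days. The control cultures thus carried the same hairpin vector. None of the 12 libraries came from cells with a control hairpin, so an effect of DOX itself and an effect of the MUC1 hairpin cannot be told apart. Each line comes from 1 tumor and was grown in its own medium, and 1 MUC1 hairpin was used for the 12 libraries. Total counts ran from 38224144 to 50525926 per QGP-1 library and from 15981954 to 28484324 per BON-1 library. The labels speak of cultures in triplicate and the study of biological triplicates, and p-values measure the spread between these cultures. Within a group, pairs of libraries were compared by a chi-square of their counts, averaged over genes. QGP-1 DOX replicate 1 stood at 27.0 and 28.2 from the other 2, which stood at 10.8 from each other, and results that rest on it are given with and without it.

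TGF-β ligands are secreted in a latent form, held in the matrix with latent TGF-β binding proteins, and act once released. An active ligand binds TGFBR2, which recruits and phosphorylates TGFBR1, and TGFBR1 in turn phosphorylates SMAD2 and SMAD3. These join SMAD4, move to the nucleus and switch target genes, among them SMAD7, which feeds back to shut the receptor down. TGFBR3, also called betaglycan, is a co-receptor with a special role for TGFB2. The pathway restrains the growth of many epithelial cells, and tumor cells that escape this restraint may still respond to it by changing shape and matrix.

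The labelled cell type was checked first. In QGP-1 the 20 neuroendocrine markers summed to between 8556 and 9558 counts per 1000000 (CPM) with vehicle and to between 9548 and 10438 with DOX, and SCG2 was the most abundant in both groups. In BON-1 they summed to between 15234 and 19096 CPM with vehicle and to between 11774 and 12163 with DOX. The leading marker in BON-1 was CHGA with vehicle and SCG2 with DOX. NEUROD1 was at 0 counts in every QGP-1 library, and NCAM1 had at most 2 counts in any BON-1 library. Part of this marker list moved with DOX in both lines. Of 19 that could be tested, 7 rose and 3 fell in QGP-1 (36.8% and 15.8%, against 17.3% and 17.7% of all genes tested), and 2 rose and 6 fell in BON-1 (10.5% and 31.6%, against 17.0% and 18.3%), by edgeR at an adjusted p below 0.05. Their part in the values below was not tested. The 7 fibroblast markers summed to at most 17.9 CPM in any library, with COL3A1 at 10 counts or fewer. Of the few that could be tested, FAP fell in QGP-1 (log2 fold change -2.65, SE 0.594, adjusted p = 0.00334) and in BON-1 (-1.04, SE 0.288, adjusted p = 0.00567), and LUM rose in BON-1 from 5.18 ± 0.735 to 10.5 ± 0.530 CPM (SD, n = 3, adjusted p = 6.20e-05). The part of these changes in the values below was not tested. Among the 6 leukocyte markers, CD68 rose in BON-1 from 25.3 ± 1.41 to 50.6 ± 2.04 CPM (SD, n = 3, adjusted p = 4.33e-09) and accounted for most of the list, while PTPRC, which marks all leukocytes, had at most 9 counts in any library. Of the 5 endothelial markers, KDR reached between 31.3 and 40.3 CPM in the BON-1 libraries, and CDH5 had at most 7 counts.

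MUC1, the target of the hairpin, was low in all the DOX libraries. In QGP-1 it stood at 7.19, 5.81 and 5.65 CPM with vehicle and at 0.705, 1.04 and 0.744 CPM with DOX. This is a log2 fold change of -2.91 (SE 0.226, adjusted p = 8.24e-07). In BON-1 the values were 20.6, 20.7 and 15.6 CPM with vehicle and 1.48, 2.65 and 3.97 CPM with DOX. The log2 fold change there was -2.79 (SE 0.218, adjusted p = 6.51e-11). The groups were well apart in both lines.

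The ligand genes responded differently from each other. TGFB1 encodes the most widely expressed of these ligands. In BON-1 it stood at 40.2, 36.0 and 42.7 CPM with vehicle and at 23.1, 25.6 and 17.3 CPM with DOX. Every DOX library was thus below every vehicle library, with a log2 fold change of -0.85 (SE 0.121). In QGP-1, TGFB1 was low throughout, at 2.78, 3.10 and 2.55 CPM with vehicle and 1.53, 2.94 and 3.21 CPM with DOX. These groups overlapped, and the log2 fold change was -0.14 (SE 0.266). Without QGP-1 DOX replicate 1, which gave the low value, it was 0.14. The gene spans chr19:41301587-41353922 on the minus strand (GRCh38, GENCODE) and overlaps HNRNPUL1 on the other strand, whose level fell from 304.1 to 210.8 CPM in BON-1 (log2 fold change -0.53, SE 0.0754, adjusted p = 3.04e-06). In QGP-1, HNRNPUL1 averaged 305.6 CPM with vehicle and 306.5 CPM with DOX (log2 fold change 0.004, SE 0.0725). CCDC97, also on the other strand, averaged 35.5 CPM with vehicle and 35.3 CPM with DOX in BON-1 (-0.01, SE 0.0989, adjusted p = 0.954), and 24.4 and 29.9 CPM in QGP-1 (0.30, adjusted p = 0.0284). TMEM91, on that strand too, had at most 23 counts in any library. Whether counting used the strand is not given in the sources used here, so the part of these genes in the TGFB1 value was not tested.

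TGFB2 was the member with the largest difference between DOX and vehicle cells. In BON-1 it stood at 11.9, 10.4 and 9.45 CPM with vehicle and at 64.2, 63.8 and 74.9 CPM with DOX, from 170 to 335 and 1000 to 1472 counts. The 3 DOX libraries lay close together and far above the vehicle libraries, 6.36 times as high, with a log2 fold change of 2.67 (SE 0.111). In QGP-1, TGFB2 had 3 to 13 counts in a vehicle library and 6 to 17 in a DOX library. A log2 fold change of 0.60 (SE 0.723) at this depth does not separate the groups, which overlapped, and it was 0.15 without DOX replicate 2 and 1.34 without vehicle replicate 1. TGFB2 lies at chr1:218345336-218444619 on the plus strand. TGFB2-AS1, which starts within it on the other strand, had 2 to 3 counts a library with vehicle and 8 to 13 with DOX in BON-1, too few to be tested.

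TGFB3 made up most of the ligand message in both lines. In QGP-1 it stood at 31.5, 31.1 and 34.4 CPM with vehicle and at 44.5, 40.7 and 39.1 CPM with DOX, a log2 fold change of 0.36 (SE 0.0867). In BON-1 the values were 590.3, 577 and 542 CPM with vehicle and 528, 529.8 and 482 CPM with DOX, a log2 fold change of -0.15 (SE 0.0774). The groups did not overlap in either line, and they lay in opposite directions. By edgeR the BON-1 value did not pass an adjusted p below 0.05, and leaving out any 1 library gave -0.20 to -0.12. TGFB3 lies at chr14:75958097-75983011 on the minus strand. IFT43 overlaps it on the other strand and averaged 8.43 CPM with vehicle and 7.83 CPM with DOX in BON-1.

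The stretches before the start sites of TGFB1 and TGFB2 are shown because these ligands lay on opposite sides of 0 in BON-1, and that of TGFBR2 because it was higher with DOX in both lines. Each is the 250 bases before the start, written 5′ to 3′ on the strand of the gene (RefSeq, GRCh38.p14). They are chr19:41353923-41354172, chr1:218345086-218345335 and chr3:30606351-30606600. Capitals mark exact matches on either strand to any of 4 motifs. The GC box was searched as GGGCGG and the E-box as CACGTG. The TATA box was searched as TATAAA, and the letters CAGACA stand for the sites that SMAD3 and SMAD4 are known to bind.
TGFB1: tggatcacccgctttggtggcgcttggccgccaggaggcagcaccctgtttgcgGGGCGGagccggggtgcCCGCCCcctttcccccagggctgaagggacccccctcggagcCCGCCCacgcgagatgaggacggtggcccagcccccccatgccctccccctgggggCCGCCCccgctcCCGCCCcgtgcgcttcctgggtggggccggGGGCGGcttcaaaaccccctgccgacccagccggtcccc
TGFB2: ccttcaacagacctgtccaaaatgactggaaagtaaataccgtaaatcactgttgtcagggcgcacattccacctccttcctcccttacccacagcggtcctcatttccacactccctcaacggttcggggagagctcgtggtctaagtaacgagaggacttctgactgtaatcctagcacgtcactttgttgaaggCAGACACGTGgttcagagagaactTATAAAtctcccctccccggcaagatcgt
TGFBR2: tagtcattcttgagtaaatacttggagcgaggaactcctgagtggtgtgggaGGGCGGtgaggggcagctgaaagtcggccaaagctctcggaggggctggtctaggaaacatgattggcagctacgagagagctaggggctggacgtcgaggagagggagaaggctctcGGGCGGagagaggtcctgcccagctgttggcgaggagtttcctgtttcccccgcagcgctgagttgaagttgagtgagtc
TGFB1 had 6 GC boxes, no TATA box and a GC content of 76.8%. TGFB2 had none of the GC boxes but a TATA box 29 bases before the start, and an E-box that overlapped a CAGACA match in the letters CAGACACGTG, with a GC content of 50.4%. TGFBR2 had 2 GC boxes and a GC content of 58.4%, beside a median of 58% over all 35116 such stretches. A single start was used for each of the 10 genes, although TGFBR1 had 8, SMAD3 5, SMAD7 3, and TGFBR2, TGFB3 and SMAD2 had 2 each. Those used for TGFBR3, SMAD3 and SMAD4 lay 20184, 1839 and 1685 bases from the GENCODE gene start, and those for SMAD2 and TGFBR1 274 and 14. Over the 10 genes, a GC box was found in 6 (TGFB1, TGFBR2, TGFBR3, SMAD2, SMAD3 and SMAD4), against 42.6% of all stretches. An E-box was found in 3 (TGFB2, TGFB3 and SMAD3), against 6.34%, a CAGACA match in 2 (TGFB2 and TGFBR1), against 13.6%, and a TATA box in TGFB2, against 10.7%. The SMAD-binding palindrome GTCTAGAC was in none of the 10 and in 0.182% of all stretches. These are matches of letters and say nothing of whether a factor binds there.

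Among the receptors, TGFBR2 was higher with DOX in both lines. It encodes the type II receptor that binds ligand first. In QGP-1 it stood at 21.7, 20.3 and 21.2 CPM with vehicle and at 30.0, 35.2 and 30.1 CPM with DOX, a log2 fold change of 0.59 (SE 0.0951). In BON-1 it stood at 211.8, 198 and 208 CPM with vehicle and at 389.8, 422 and 435 CPM with DOX, a log2 fold change of 1.01 (SE 0.0757). The groups were apart in both lines, and the DOX level was 1.51 times the vehicle level in QGP-1 and 2.02 times in BON-1. TGFBR2 lies at chr3:30606601-30694142 on the plus strand. Leaving out any 1 library left its log2 fold change between 0.52 and 0.64 in QGP-1 and between 0.96 and 1.05 in BON-1.

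TGFBR1 encodes the type I receptor kinase, and it differed with DOX in QGP-1. There it stood at 97.6, 96.5 and 100.01 CPM with vehicle and at 117.6, 125 and 125 CPM with DOX, a log2 fold change of 0.32 (SE 0.0662) between groups that did not overlap. In BON-1 its values were 31.3, 26.0 and 27.8 CPM with vehicle and 28.1, 26.4 and 31.3 CPM with DOX, which overlapped fully (log2 fold change 0.01, SE 0.110). TGFBR3 was lower with DOX in both lines. In QGP-1 it stood at 2.62, 3.03 and 2.79 CPM with vehicle and at 1.55, 2.41 and 2.23 CPM with DOX (log2 fold change -0.45, SE 0.236), and in BON-1 at 74.3, 62.9 and 74.01 against 60.7, 61.5 and 59.2 CPM (log2 fold change -0.22, SE 0.0873). The groups did not overlap in either line, but by edgeR TGFBR3 did not pass an adjusted p below 0.05 in the main fit of either line. Without QGP-1 DOX replicate 1, the lowest library, the QGP-1 value was -0.27.

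SMAD3, one of the SMADs that carry the signal, differed with DOX in BON-1. In BON-1 it stood at 52.3, 53.6 and 56.7 CPM with vehicle and at 80.6, 81.6 and 80.6 CPM with DOX, a log2 fold change of 0.58 (SE 0.0825). In QGP-1 it stood at 11.2, 11.8 and 10.3 CPM with vehicle and at 10.9, 7.96 and 7.32 CPM with DOX, a log2 fold change of -0.34 (SE 0.149). DOX replicate 1 overlapped the vehicle libraries, and without it the value was -0.53 (SE 0.131). SMAD3 lies at chr15:67063763-67195173 on the plus strand.

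The other SMADs lay closer to 0. SMAD2, the sister of SMAD3 in the signal, stood at 205.1 to 215.1 CPM with vehicle and 223.1 to 233 with DOX in QGP-1 (log2 fold change 0.11, SE 0.0624), and at 119 to 128 against 108 to 123 CPM in BON-1 (-0.09, SE 0.0782). SMAD4, the partner that both share, had log2 fold changes of 0.06 (SE 0.0672) in QGP-1 and 0.09 (SE 0.0849) in BON-1, with overlapping groups. With 1 library left out these ran from 0.037 to 0.11 and from 0.041 to 0.14, and that of SMAD2 in BON-1 from -0.17 to -0.059. SMAD7, the feedback inhibitor and a textbook target of the signal, was low in both lines, at 1.91 to 2.43 CPM in the QGP-1 libraries and 1.17 to 2.39 CPM in the BON-1 libraries. Its log2 fold change was 0.08 (SE 0.237) in QGP-1 and -0.28 (SE 0.391) in BON-1, from 23 to 104 counts a library, so a modest change would not be detectable. Leaving out 1 library gave -0.003 to 0.17 in QGP-1 and -0.50 to -0.03 in BON-1, the last without vehicle replicate 3. SMAD2, SMAD4 and SMAD7 all lie on chromosome 18.

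**Figure D1:**
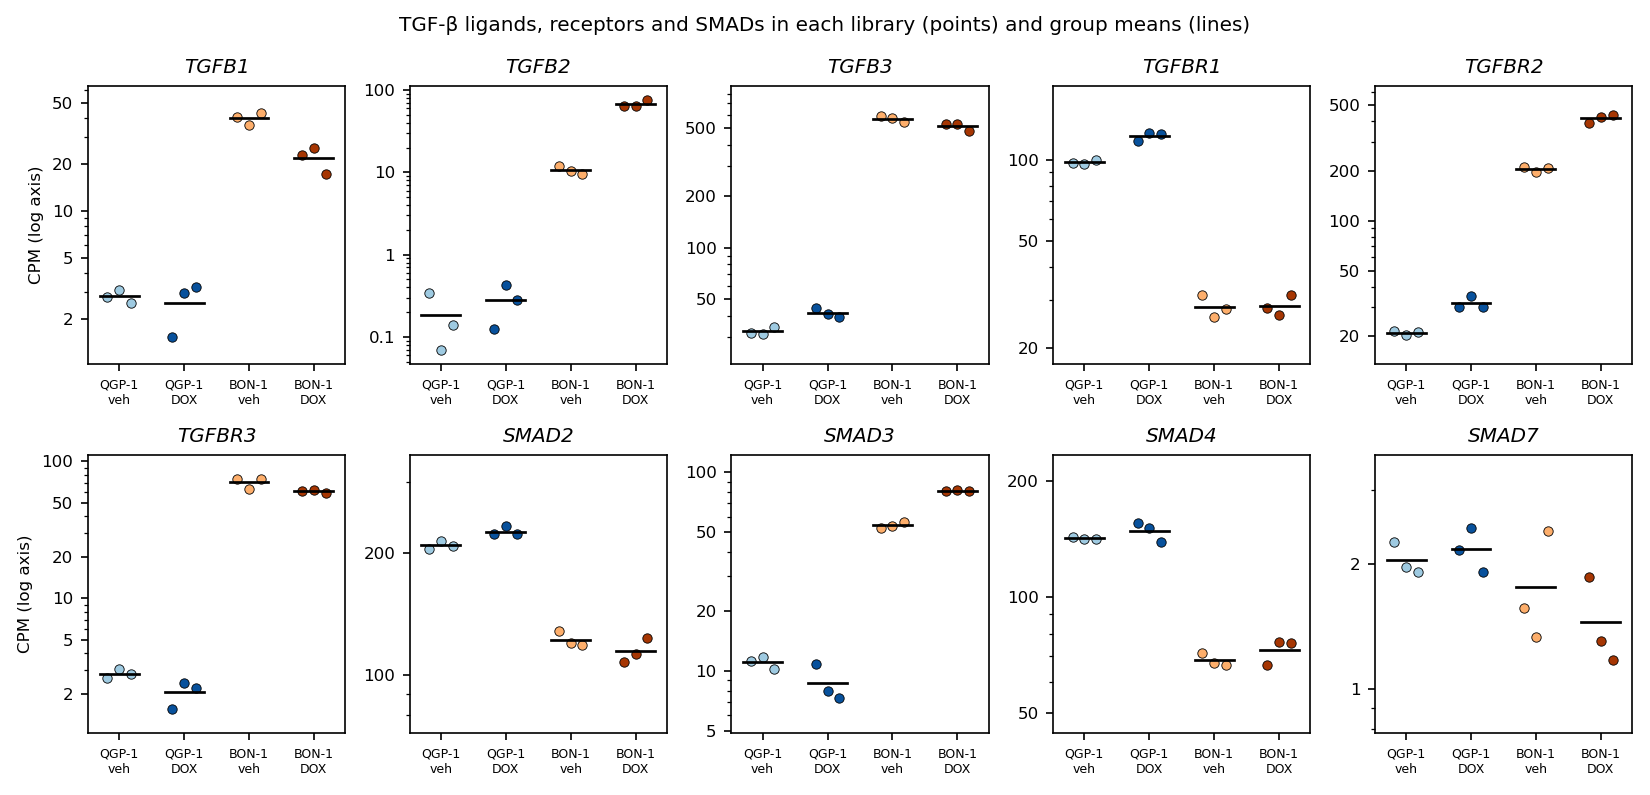
Level of each of the 10 genes in CPM (vertical log axes, which differ between panels) in the 12 libraries. Points are libraries and lines are group means (n = 3 per group). TGFB2, TGFBR2 and SMAD3 are higher and TGFB1 is lower in the BON-1 DOX libraries than in the BON-1 vehicle libraries, and in QGP-1 the levels of TGFB3, TGFBR1 and TGFBR2 lie higher with DOX.

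All 10 genes passed the filter on low counts in either fit. Using an adjusted p below 0.05 over all tested genes, edgeR placed 3 of the 10 on the higher side in QGP-1 (TGFB3, TGFBR1 and TGFBR2), against 17.3% of the 15089 genes tested, and 0 on the lower side, against 17.7%. At the same adjusted threshold, DESeq2 also placed 0 on the lower side, against 18.4% of all genes, and the fit of both lines together placed 2, against 15.7%. At an unadjusted p below 0.05, edgeR placed 1 there, against 22.8%. In BON-1, at the adjusted threshold, it placed 3 on the higher side (TGFB2, TGFBR2 and SMAD3), against 17.0% of 14625 genes, and 1 on the lower side (TGFB1), against 18.3%. The genes were chosen for this contrast, so nothing is read from these counts. The median log2 fold change of the 10 was 0.10 in QGP-1 and -0.04 in BON-1, against -0.01 over all tested genes in each line.

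**Figure D2:**
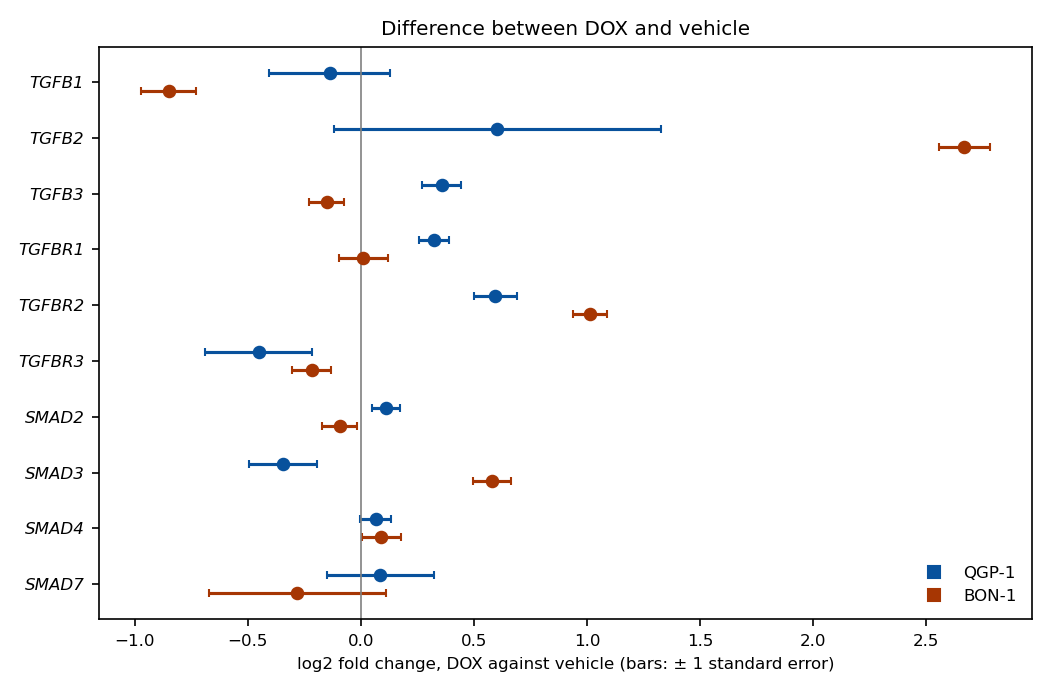
The log2 fold change of each of the 10 genes with DOX against vehicle (horizontal axis), QGP-1 in blue and BON-1 in brown. Bars are 1 standard error to each side; TGFBR2 lies to the right of 0 in both lines, at 0.59 and 1.01, and TGFB2 in BON-1 lies farthest out, at 2.67.

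The response of the 2 lines was also set side by side in 1 model of 12 libraries, as the BON-1 log2 fold change minus that of QGP-1. It was 2.08 (SE 0.538) for TGFB2, 0.93 (SE 0.159) for SMAD3, 0.43 (SE 0.112) for TGFBR2 and 0.25 (SE 0.184) for TGFBR3. On the other side lay TGFB1 at -0.70 (SE 0.266), TGFB3 at -0.50 (SE 0.107), SMAD7 at -0.36 (SE 0.438), TGFBR1 at -0.30 (SE 0.125) and SMAD2 at -0.20 (SE 0.104), while SMAD4 was at 0.04 (SE 0.110). These differences combine the contrasts on which the genes were chosen and are given with no test. The TGFB2 value leaned on very few QGP-1 counts, and without QGP-1 vehicle replicate 1 it was 1.39 (SE 0.652). Without QGP-1 DOX replicate 1, that of TGFB1 became -1.03 (SE 0.219) and that of TGFBR3 became 0.018. That of SMAD7 ran from -0.59 to -0.12 over the libraries left out, the last without BON-1 vehicle replicate 3.

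With vehicle alone, BON-1 held more of all 3 ligands. The log2 difference, BON-1 minus QGP-1, was 5.81 (SE 0.274) for TGFB2, 4.06 (SE 0.0841) for TGFB3 and 3.74 (SE 0.191) for TGFB1, the last a 13.4-fold difference. That of TGFB2 rested on 3 to 13 counts per QGP-1 vehicle library, and it was 6.50 without QGP-1 vehicle replicate 1 and ranged from 5.43 to 6.50 over the libraries left out. The log2 difference was also 4.56 (SE 0.130) for TGFBR3, 3.21 (SE 0.0851) for TGFBR2 and 2.21 (SE 0.115) for SMAD3. QGP-1 held more TGFBR1 (-1.86, SE 0.0895), SMAD4 (-1.13, SE 0.0787) and SMAD2 (-0.85, SE 0.0737), while SMAD7 was at -0.31 (SE 0.303, and from -0.58 to -0.15 over the libraries left out). The genes were chosen partly for these levels, so the differences carry no test. Line, tumor of origin, medium and depth cannot be told apart in this comparison, and fewer cells of a kind and less RNA per cell cannot be told apart in bulk RNA.

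Levels were compared between genes per length, as transcripts per 1000000 (TPM) rescaled without the 3 most abundant small RNAs. In QGP-1 with vehicle the order ran from SMAD2 (34.5 ± 1.44 TPM, SD, n = 3) through SMAD4 (28.8 ± 1.21), TGFBR1 (27.1 ± 0.713), TGFB3 (15.2 ± 0.369), TGFBR2 (8.24 ± 0.449), SMAD3 (3.03 ± 0.296), TGFB1 (1.98 ± 0.243), SMAD7 (1.12 ± 0.140) and TGFBR3 (0.746 ± 0.0562) to TGFB2 (0.0561 ± 0.0446). SMAD4 and TGFBR1 were the only neighbours whose libraries overlapped. In BON-1 with vehicle a ligand led. The order ran from TGFB3 (325 ± 17.4 TPM) through TGFBR2 (97.9 ± 0.905), TGFB1 (33.9 ± 2.20), SMAD2 (24.5 ± 0.952), TGFBR3 (22.6 ± 1.54), SMAD3 (17.9 ± 0.807), SMAD4 (16.9 ± 0.590), TGFBR1 (9.53 ± 0.718) and TGFB2 (3.88 ± 0.434) to SMAD7 (1.17 ± 0.353). SMAD2 and TGFBR3 overlapped there, as did SMAD3 and SMAD4. Of the summed TPM of the 10 genes, SMAD2, SMAD4 and TGFBR1 were 28.6%, 23.9% and 22.5% in QGP-1, and TGFB3 and TGFBR2 were 58.7% and 17.7% in BON-1.

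The make-up of each kind of transcript was taken within each library, where scaling does not enter. TGFB3 was 88.1% ± 1.47 of the ligand TPM in QGP-1 with vehicle and 91.1% ± 3.36 with DOX. In BON-1 it was 89.6% ± 0.976 and 87.0% ± 0.392. TGFB2 went from 1.07% ± 0.0870 to 7.42% ± 1.09 of the BON-1 ligand TPM while TGFB1 went from 9.37% ± 1.01 to 5.57% ± 0.827, so that the order of these minor ligands turned over. TGFBR2 was 22.8% ± 0.537 of receptor TPM in QGP-1 with vehicle and 75.3% ± 1.06 in BON-1 with vehicle. With DOX these shares stood at 26.5% ± 1.47 and 87.1% ± 0.582. The ratio of TGFBR2 to TGFBR1 was 0.304 ± 0.00878 in QGP-1 with vehicle, 10.3 ± 0.658 in BON-1 with vehicle and 20.6 ± 1.70 in BON-1 with DOX. SMAD3 was 8.05% ± 0.437 of the SMAD2 and SMAD3 TPM in QGP-1 with vehicle and 42.3% ± 1.95 in BON-1 with vehicle. With DOX it was 5.99% ± 1.28 in QGP-1 and 53.9% ± 1.74 in BON-1, where it was above SMAD2 in every library. By counts, with no division by length, SMAD3 stayed below SMAD2 there, at 41.4%, so this order rests on the authors' gene lengths.

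**Figure D3:**
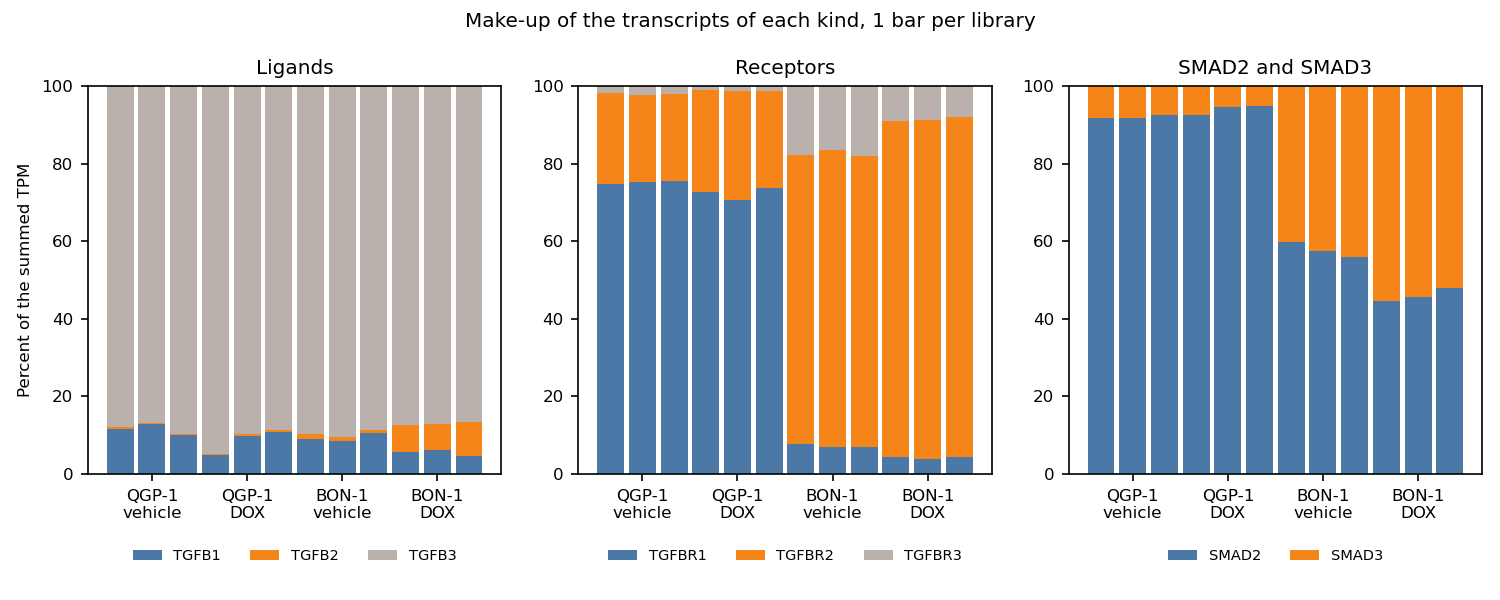
Percent of the summed TPM (vertical axis) taken by each gene among the ligands, the receptors, and SMAD2 with SMAD3, with 1 bar per library and 3 libraries per group. TGFB3 fills most of each ligand bar, the main receptor is TGFBR1 in QGP-1 and TGFBR2 in BON-1, and the SMAD3 share is largest in BON-1 with DOX.

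For 3 members the most similar genes were sought among 13534 genes over the 12 libraries, by Pearson's r of log2 CPM. CTGF, a matrix protein gene that TGF-β induces, was nearest to TGFBR2 (r = 0.999), followed by NCEH1 and TRIB1 (r = 0.998 each). The nearest to SMAD3 were SOX13, ZC3H12A (r = 0.996 each) and LATS2 (r = 0.995), and to SMAD7 they were TTC27 (r = 0.927), TSSC4 (r = 0.924) and KIAA0355 (r = 0.883). These values are a description over 12 libraries from 2 lines. The libraries of the lines did not overlap in TGFBR2 or SMAD3 and overlapped in SMAD7, and no r was taken within a line.

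The wider pathway was examined in 6 lists. The lists were written with earlier results of these data known, so their shares of calls, here and below, are a description. They held 148 genes of the count tables, examined by edgeR at an adjusted p below 0.05. In QGP-1, 103 of them were tested, of which 39 rose and 13 fell (37.9% and 12.6%, against 17.3% and 17.7% of all genes). In BON-1, 107 were tested, of which 32 rose and 23 fell (29.9% and 21.5%, against 17.0% and 18.3%). The median log2 fold change was 0.13 in QGP-1 and 0.03 in BON-1. Both lines had 93 testable members of these lists. Of these, 28 passed in each line, with 20 going the same way (21.5%) and 8 opposite ways (8.60%). Over all 13535 genes tested in both lines, 14.1% passed in each with the same direction and 2.69% with opposite directions.

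**Figure D4:**
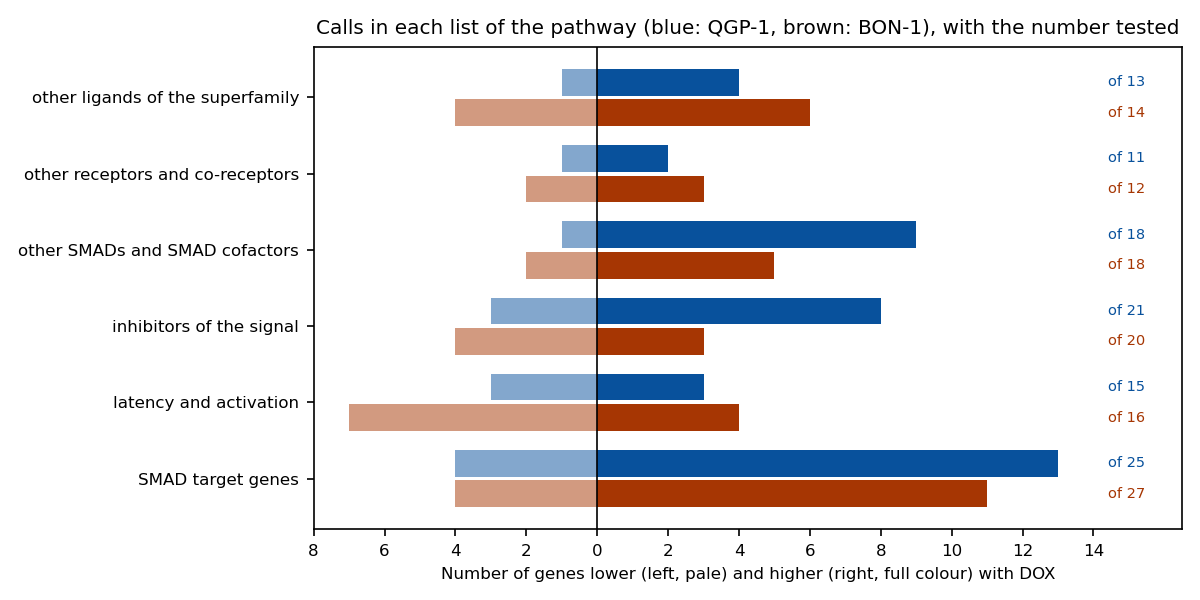
Number of genes in each of 6 lists of the wider pathway that rose (right) or fell (left, pale) with DOX at an adjusted p below 0.05, with the number tested at the right edge. QGP-1 is blue and BON-1 brown; of the SMAD targets tested, 13 of 25 rose in QGP-1 and 11 of 27 in BON-1.

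Of the other ligands of the superfamily, 13 of 30 were expressed enough to be tested in QGP-1, where 4 rose and 1 fell (30.8% and 7.69%), and 14 in BON-1, where 6 rose and 4 fell (42.9% and 28.6%). Shares of each list are to be set beside those of all genes, 17.3% and 17.7% in QGP-1 and 17.0% and 18.3% in BON-1. The list's median log2 fold change was 0.03 in QGP-1 and -0.18 in BON-1. INHBA and INHBB, the subunits of activins, which signal through SMAD2 and SMAD3, rose in both lines. INHBA had log2 fold changes of 1.49 (SE 0.180, adjusted p = 3.61e-05) in QGP-1 and 1.56 (SE 0.434, adjusted p = 0.00588) in BON-1. INHBB went from 126 ± 6.70 to 188 ± 15.0 CPM in BON-1 (0.57, adjusted p = 1.95e-06), and in QGP-1 its log2 fold change was 0.65 (adjusted p = 0.0257). GDF15, a stress-induced cytokine of this family, went in opposite directions. It stood at 786, 644 and 629.9 CPM with vehicle and 380.02, 421 and 369 CPM with DOX in QGP-1, and fell by 0.82 on the log2 scale (SE 0.0871, adjusted p = 1.33e-05). In BON-1 it stood at 308, 291 and 284 CPM with vehicle and 942, 971 and 755 CPM with DOX (1.60, SE 0.0891, adjusted p = 6.44e-14). BMP6 rose in BON-1 from 3.39 ± 1.03 to 10.7 ± 2.28 CPM (1.64, adjusted p = 1.16e-06), with a value of 0.03 in QGP-1. GDF11, an activin-like ligand, fell by 0.81 in BON-1 (adjusted p = 2.08e-05), as did BMP8A (adjusted p = 0.00179). BMP8A shares sequence with BMP8B, and the part of shared reads in its value was not tested. The INHBB call in QGP-1 was lost without vehicle replicate 3 (0.47) or DOX replicate 2 (0.50), and that of INHBA in BON-1 without DOX replicate 2 (1.20).

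Of the other receptors, 2 rose and 1 fell of 11 tested in QGP-1 (18.2% and 9.09%), and 3 rose and 2 fell of 12 tested in BON-1 (25.0% and 16.7%), with medians of 0.04 and -0.02. With so few genes, these counts lie close to what the shares of all genes give. In QGP-1 the bone morphogenetic protein (BMP) type II receptor BMPR2 rose from 179 ± 5.26 to 293 ± 15.8 CPM (log2 fold change 0.72, adjusted p = 3.77e-06), and the type I receptor ACVR1 rose by 0.28 (adjusted p = 0.00544). Their values in BON-1 were 0.11 (0.012 to 0.17 when 1 library was left out) and 0.00. CD109, a co-receptor that damps TGF-β signaling, rose in BON-1 from 6.41 ± 0.646 to 16.9 ± 0.674 CPM (1.40, adjusted p = 4.53e-08). In QGP-1 it stood at 0.275 ± 0.186 CPM with vehicle and 0.668 ± 0.0367 CPM with DOX (1.31, SE 0.586, adjusted p = 0.0998), in groups that did not overlap, and the log2 fold change ran from 0.80 (without vehicle replicate 3) to 1.65 when 1 library was left out. It missed the threshold in all 6 of those fits and in 5 of 6 other settings, and passed when both lines were fitted together (1.33). The activin type II receptor ACVR2A rose in BON-1 by 0.36 (adjusted p = 0.00104), while the type I receptors BMPR1A (-0.38, adjusted p = 2.40e-04) and ACVR1B (-0.30, adjusted p = 0.0167) fell. BMPR1B, another BMP type I receptor, fell in QGP-1 (-0.50, adjusted p = 0.0105) and rose in BON-1 (0.28, adjusted p = 0.0245). Calls near the threshold hung on single libraries. BMPR1B in BON-1 was lost without vehicle replicate 1 or 2 or DOX replicate 1 or 3, with values from 0.19 to 0.36 over the libraries left out, and with library size alone as the scaling (0.23). BMPR1B in QGP-1 was lost without vehicle replicate 2 (-0.42), and ACVR1B in BON-1 without vehicle replicate 1 or 3 or DOX replicate 3 (range -0.38 to -0.26).

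Of the SMADs and SMAD cofactors outside the 10, 9 rose and 1 fell of 18 tested in QGP-1 (50.0% and 5.56%, median 0.21), and in BON-1, 5 rose and 2 fell of 18 (27.8% and 11.1%, median 0.14). SMAD1, which carries BMP signals, rose in both lines (QGP-1 0.35, adjusted p = 0.00547, and BON-1 0.52, adjusted p = 1.27e-05), as did TRIM33, a SMAD4-binding ubiquitin ligase (0.53, adjusted p = 6.89e-05, and 0.44, adjusted p = 4.80e-05), and TGFBRAP1, which binds TGF-β receptors (0.49, adjusted p = 3.80e-04, and 0.56, adjusted p = 1.72e-06). The coactivator EP300 rose in QGP-1 (0.50, adjusted p = 0.00146), where RUNX3, a transcription factor that works with SMADs, fell from 5.08 ± 1.00 to 2.15 ± 0.469 CPM (-1.24, adjusted p = 7.81e-04). RUNX3 was too low to be tested in BON-1. SMAD9, also of the BMP branch, fell in BON-1 from 25.6, 25.0 and 24.4 CPM with vehicle to 5.01, 5.20 and 6.36 CPM with DOX (-2.17, SE 0.145, adjusted p = 2.48e-12), and its value in QGP-1 was 0.27. ZFYVE16, an endosomal SMAD anchor, fell in BON-1 (-0.38, adjusted p = 3.28e-04).

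Of the genes listed as inhibitors of the signal, 8 rose and 3 fell of 21 tested in QGP-1 (38.1% and 14.3%), and 3 rose and 4 fell of 20 in BON-1 (15.0% and 20%), with medians of 0.04 and 0.00. FST, which encodes follistatin, the secreted trap for activins, rose from 466 ± 22.3 to 834 ± 44.5 CPM in QGP-1 (0.84, SE 0.0678, adjusted p = 1.09e-06) and from 2.43 ± 0.115 to 5.09 ± 0.788 CPM in BON-1 (1.06, SE 0.249, adjusted p = 0.00130). CHRD, which encodes the BMP trap chordin, fell in both lines (QGP-1 -0.62, adjusted p = 0.0269, and BON-1 -1.07, adjusted p = 5.20e-08). CER1, a secreted trap for Nodal and BMPs, rose in QGP-1 from 1.11 ± 0.304 to 3.95 ± 1.21 CPM (1.83, adjusted p = 2.53e-04). FSTL1 fell in BON-1 (-1.67, adjusted p = 3.77e-05). RNF111 rose in both lines (0.25, adjusted p = 0.0103, and 0.34, adjusted p = 0.00115), and although it stands in this list it encodes a ubiquitin ligase that removes SMAD7 and so favors the signal. The CHRD call in QGP-1 was lost without any 1 of vehicle replicates 1 and 2 and DOX replicates 2 and 3, over a range of -0.82 to -0.50.

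Of the genes of latency and activation, 3 rose and 3 fell of 15 tested in QGP-1 (20% each, median -0.07), and in BON-1, 4 rose and 7 fell of 16 (25.0% and 43.8%, median -0.16). LTBP1, which holds latent TGF-β in the matrix, stood at 11.9, 12.7 and 12.8 CPM with vehicle and 29.7, 26.9 and 31.7 CPM with DOX in QGP-1 (1.24, SE 0.0999, adjusted p = 1.09e-06). In BON-1 it stood at 23.1, 20.4 and 18.2 CPM and then 46.9, 47.7 and 50.8 CPM (1.23, SE 0.105, adjusted p = 4.04e-10). THBS1, which encodes thrombospondin-1, an activator of latent TGF-β, went from 67.4 ± 1.93 to 139 ± 5.81 CPM in QGP-1 (1.04, SE 0.0690, adjusted p = 2.23e-07) and from 307 ± 8.74 to 631 ± 23.7 CPM in BON-1 (1.04, SE 0.0758, adjusted p = 1.69e-11). ITGAV, the αv integrin chain that pulls latent TGF-β open, fell in both lines (-0.59, adjusted p = 6.27e-05, and -0.48, adjusted p = 8.45e-06). Its partner ITGB6 fell in QGP-1 (-0.92, adjusted p = 4.98e-06) and rose in BON-1 (0.74, adjusted p = 0.00545), a call lost without BON-1 DOX replicate 1 (0.55). BGN, which encodes biglycan, a matrix proteoglycan that binds TGF-β, fell in BON-1 from 444, 333 and 394 CPM to 67.4, 71.4 and 56.1 CPM (-2.59, SE 0.100, adjusted p = 2.61e-17) and had at most 5 counts in a QGP-1 library. MMP2, a matrix protease, rose in QGP-1 (0.67, adjusted p = 7.04e-05) and fell in BON-1 from 42.2 ± 5.42 to 14.7 ± 1.07 CPM (-1.52, adjusted p = 4.28e-11).

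Among SMAD target genes, 13 rose and 4 fell of 25 tested in QGP-1 (52% and 16%, median 0.37), and in BON-1 11 rose and 4 fell of 27 (40.7% and 14.8%, median 0.09). CTGF, nearest to TGFBR2 above, stood at 1.42, 1.27 and 1.29 CPM with vehicle and 2.51, 2.71 and 2.39 CPM with DOX in QGP-1 (0.94, SE 0.244, adjusted p = 0.00842), and at 42.9, 47.8 and 37.4 against 122, 125 and 113 CPM in BON-1 (1.49, SE 0.0906, adjusted p = 3.59e-13). The collagenase gene MMP13 rose in both lines (1.16, adjusted p = 3.44e-04, and 0.73, adjusted p = 0.00243). FN1, the gene of fibronectin, rose in QGP-1 from 0.944, 0.416 and 0.161 CPM to 4.52, 5.40 and 2.70 CPM (3.10, SE 0.441, adjusted p = 1.30e-04). The vehicle libraries held 36, 18 and 8 counts, and the log2 fold change was 3.88 without vehicle replicate 1 and ranged from 2.64 to 3.88 over the libraries left out. FN1 stood in BON-1 at 211 ± 17.2 CPM with vehicle and 231 ± 10.6 CPM with DOX (0.13, adjusted p = 0.192). That log2 fold change ran from 0.067 to 0.19 when 1 library was left out. In QGP-1, ITGA5, the fibronectin receptor chain, fell (-1.59, adjusted p = 8.86e-04), and so did BHLHE40, a transcriptional repressor (-0.67, adjusted p = 0.00245). VIM, the mesenchymal intermediate filament gene, had 0 counts in the QGP-1 vehicle libraries, which allows up to 0.0227 CPM over the group for counting error only, and stood at 725 ± 127 CPM in BON-1 with vehicle. The cadherin gene CDH2 went the other way, at 109 ± 4.49 CPM in QGP-1 with vehicle and 0 counts in the BON-1 vehicle libraries. The same counting limit there was 0.0442 CPM. No state of either line is read from these genes.

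The 8 genes that went in opposite directions included ID1, ID3 and TGFBI. ID1 and ID3, best known as targets of the BMP branch, rose in QGP-1 by 1.19 (SE 0.118, adjusted p = 7.38e-06) and 1.06 (SE 0.0857, adjusted p = 1.11e-06), and fell in BON-1, with values of -0.60 (SE 0.0908, adjusted p = 6.78e-06) and -0.63 (SE 0.0956, adjusted p = 6.83e-06). TGFBI, a matrix protein gene named for its induction by TGF-β, rose in QGP-1 from 28.3 ± 1.95 to 49.9 ± 2.00 CPM (0.82, adjusted p = 1.02e-05) and fell in BON-1 from 209 ± 14.0 to 143 ± 6.44 CPM (-0.55, adjusted p = 2.30e-06). PDGFB, a growth factor gene, fell in QGP-1 (-0.42, adjusted p = 0.0385) and rose in BON-1 (0.68, adjusted p = 0.00836). The other 4 were GDF15, BMPR1B, ITGB6 and MMP2. Over the wider pathway, 118 genes were tested for that difference, of which 20 were lower in BON-1 than in QGP-1 and 10 were higher (16.9% and 8.47%, against 7.92% and 8.80% of all 16598 genes). With library size alone as the scaling, the calls over all genes were 1823 lower and 1123 higher, in place of 1315 and 1461, and those of the wider pathway were 26 and 7, in place of 20 and 10. The PDGFB call in QGP-1 was lost without any 1 of vehicle replicates 1 and 2 and DOX replicates 1 and 2 (range -0.50 to -0.32), and with library size alone (-0.40). The 10 pathway genes whose difference was higher in BON-1 became 6 without BON-1 DOX replicate 2 and 8 without QGP-1 DOX replicate 1, while those of all genes went from 1461 (8.80%) to 1207 (7.05%) and 1230 (7.35%).

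**Figure D5:**
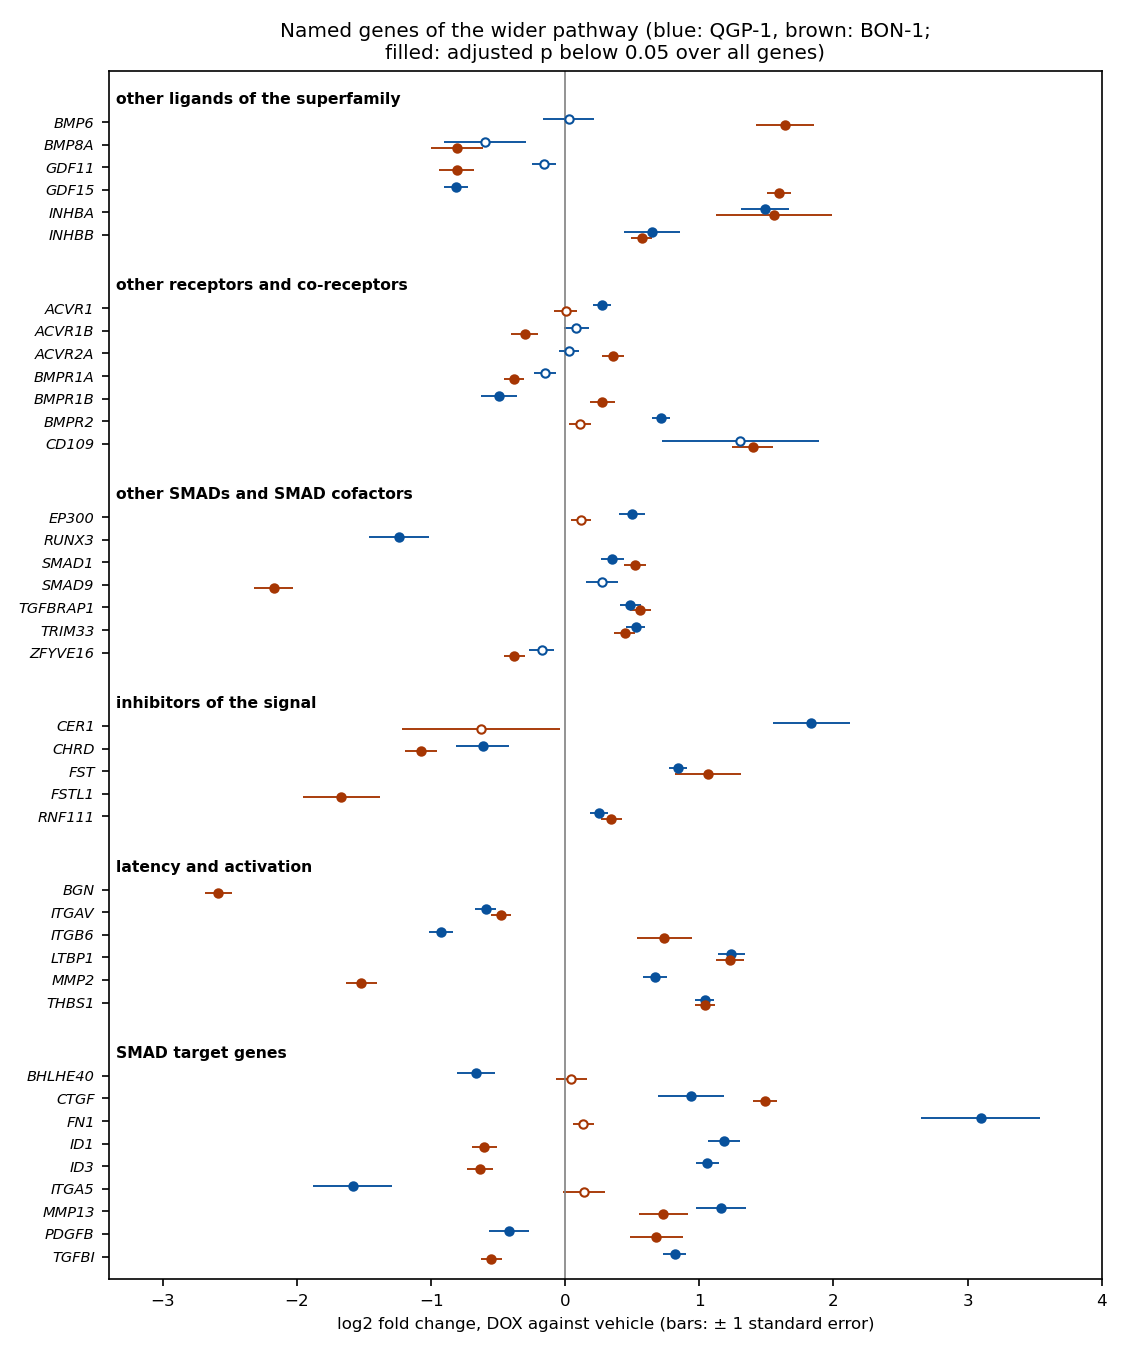
The log2 fold change with DOX against vehicle (horizontal axis) of the 40 named genes of the wider pathway, QGP-1 in blue and BON-1 in brown, grouped by list. Bars are 1 standard error to each side, filled points passed an adjusted p below 0.05 and a missing point was not tested; LTBP1 and THBS1 coincide in the 2 lines, while GDF15, MMP2, ID1 and ID3 lie on opposite sides of 0.

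Between the lines with vehicle, 69 of the 118 wider pathway genes were higher in BON-1 and 36 were lower (58.5% and 30.5%, against 37.5% and 37.5% of all genes, median log2 difference 0.55, against 0.02 over all genes). Of the SMAD targets, 22 of 30 were higher and 7 lower. FST lay far on the other side, with a log2 difference of -7.65 (SE 0.114, adjusted p = 4.91e-25).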

How the data were processed

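RNA was taken from 12 cultures of established cell lines, 3 per group, and sequenced as TruSeq Stranded mRNA libraries. The authors aligned the reads to GRCh38 with STAR and deposited raw counts per gene and transcripts per 1000000 (TPM) per gene for each library, 1 table per line. Their counting program, its strand setting and the gene lengths behind TPM are not given in the sources used here.

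The main test on counts was that of edgeR 4.0.16, run under R 4.3.3 (filterByExpr, TMM scaling, quasi-likelihood test), 1 fit per line, and 1 fit of 12 libraries for comparisons between lines. Adjusted p-values are Benjamini-Hochberg over all genes tested, with a threshold of 0.05. Each standard error (SE) was derived from that test, as the absolute log2 fold change over the square root of the F statistic. CPM are counts over TMM-scaled library sizes. TPM were rescaled without RN7SK, RN7SL1 and RN7SL2, which held 50.9% to 80.3% of TPM. Alternatives were other scalings, no filter, DESeq2 1.42.0, a replicate block, both lines in 1 fit, and each library left out. The fits were also run on simulated counts in which only genes above a set mean count were changed, so that run does not bear on genes of few counts. Figures were drawn with matplotlib 3.10.9.

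The members and lists were chosen with earlier results of these data known. Named genes are the 10 members, MUC1, and in each list and line, among called genes whose mean log2 CPM reached 1, the 2 highest and 2 lowest fold changes, together with genes called in opposite directions and the 3 genes nearest to TGFBR2, SMAD3 and SMAD7. VIM, CDH2, CHGA, SCG2, TPH1, SSTR2, FAP, LUM, PTPRC, CD68, LYZ, KDR, CDH5, COL3A1, NCAM1, NEUROD1 and the neighbors of the ligand genes were named after their values were seen. Positions are from GENCODE and promoters from RefSeq.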

Additional observations from a re-analysis of the deposited data

Results flagged for a closer look

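Each value here is the BON-1 log2 fold change minus that of QGP-1, from the edgeR fit of 12 libraries, for named genes whose response to DOX differed between the lines at an adjusted p below 0.05. The genes were named for their change in at least 1 line, and 8 of them for opposite changes, so these values are not independent of that choice. Higher in BON-1 were GDF15 (2.42, adjusted p = 1.91e-11), ITGA5 (1.73, adjusted p = 3.56e-04), ITGB6 (1.67, adjusted p = 1.16e-06), BMP6 (1.62, adjusted p = 8.01e-04), PDGFB (1.11, adjusted p = 0.00180), BMPR1B (0.78, adjusted p = 0.00108), BHLHE40 (0.72, adjusted p = 0.0160), CTGF (0.56, adjusted p = 0.0326) and ACVR2A (0.34, adjusted p = 0.0347). The last 3 hung on single libraries. BHLHE40 lost its call without QGP-1 vehicle replicate 2, BON-1 vehicle replicate 2 or BON-1 DOX replicate 2 (range over the libraries left out 0.55 to 0.89). CTGF kept its call in 3 of 12 such fits, those without QGP-1 DOX replicate 2, BON-1 vehicle replicate 2 or BON-1 DOX replicate 3 (range 0.46 to 0.63), and lost it with library size alone. ACVR2A also kept its call in 3 of 12, those without QGP-1 vehicle replicate 2, QGP-1 DOX replicate 3 or BON-1 DOX replicate 1 (range 0.27 to 0.39), and lost it with library size alone and with no filter. Lower in BON-1 were FN1 (-2.98, adjusted p = 1.10e-06), CER1 (-2.44, adjusted p = 0.00896), SMAD9 (-2.44, adjusted p = 2.79e-09), MMP2 (-2.18, adjusted p = 7.77e-10), ID1 (-1.78, adjusted p = 2.73e-08), ID3 (-1.68, adjusted p = 1.03e-08), TGFBI (-1.36, adjusted p = 7.09e-09), GDF11 (-0.64, adjusted p = 0.00578) and BMPR2 (-0.60, adjusted p = 7.01e-04). FN1 was at -3.74 without QGP-1 vehicle replicate 1 (range -3.74 to -2.51 over the libraries left out), and CER1 was at -3.37 without BON-1 DOX replicate 3 (range -3.37 to -2.12).

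TGFB3 was noted because every QGP-1 DOX library lay above, and every BON-1 DOX library below, the vehicle libraries of its line. The difference was -0.50 (SE 0.107) and is given with no test, since TGFB3 was chosen for this contrast. The BON-1 log2 fold change by itself was -0.15 (SE 0.0774) and did not pass an adjusted p below 0.05 by edgeR. No test for single outlying values was made in groups of 3. By chi-square per gene, QGP-1 vehicle replicate 3 stood at 23.5 and 19.3 from its group's other libraries (8.17 between those), BON-1 DOX replicate 3 at 21.2 and 16.3 (6.94), and BON-1 vehicle replicate 1 at 17.1 and 11.4 (5.72).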

How the results depend on the processing

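The number of the 10 genes on the lower side moved with the processing, and is given as a description since they were chosen on these contrasts. In BON-1 it was 1 (18.3% of all genes), but 3 with library size alone (21.5%) and 2 with no filter (2937 of 20554 genes), and leaving out a library gave 1 to 2 (2194 to 2577 of all genes, in place of 2677). In QGP-1 it was 0 (17.7%), but 2 with both lines in 1 fit (15.7%), and leaving out a library gave 0 to 1 (1996 to 2614 of all genes, in place of 2676). For the difference between the lines it was 1 (7.92%), but 2 with library size alone (1823 of 16598 genes), no filter (6.80%) or DESeq2 (10.00%), and leaving out a library gave 1 to 3 (971 to 1700 of all genes, in place of 1315). The other pathway genes whose difference was higher in BON-1 numbered 10, and 6 to 10 when a library was left out, while those of all genes went from 1461 to between 1076 and 1359. Sign changes occurred in values that were not called. ACVR1 in BON-1 was -0.041 with library size alone and -0.016 with no filter, and ranged from -0.052 to 0.073 when a library was left out. The matching ranges were -0.078 to 0.17 for BMP6 and -0.021 to 0.091 for ACVR2A in QGP-1, and -0.086 to 0.14 for BHLHE40 and -0.077 to 0.23 for ITGA5 in BON-1. Among the 10 genes, TGFBR1 in BON-1 ranged from -0.078 to 0.088, SMAD7 in QGP-1 from -0.0032 to 0.17, TGFB1 in QGP-1 from -0.34 to 0.14 and the SMAD4 difference between the lines from -0.041 to 0.077 when a library was left out. Over the other settings TGFBR1 in BON-1 ranged from -0.033 to 0.023 and the SMAD4 difference from -0.034 to 0.035. The cause was not tested. With library size alone the median log2 difference of all genes between the lines was 0.13 in place of 0.02.

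With a replicate block, 11 pathway genes fell and 38 rose in QGP-1 (against 2738 and 2749 of all 15089 genes) and 22 fell and 32 rose in BON-1 (against 2656 and 2408 of all 14625 genes), and the PDGFB call in QGP-1 was lost (-0.42). It was also lost with library size alone (-0.40), as was that of BMPR1B in BON-1 (0.23). The replicate numbers did not pair the samples, since deviations of same-numbered libraries correlated at -0.02, 0.05 and 0.05 in QGP-1 and -0.04, -0.03 and 0.06 in BON-1. Depth limits what can be said of TGFB2 in QGP-1 and of SMAD7 in both lines.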

Other observations

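Some neuroendocrine markers, named after their values were seen, changed with DOX. In BON-1, CHGA, the gene of the granule protein chromogranin A, fell from 8104 ± 1428 to 2936 ± 215 CPM (SD, n = 3, log2 fold change -1.46, SE 0.109, edgeR adjusted p = 2.45e-11), and TPH1, the enzyme that begins serotonin synthesis, fell by 2.19 on the log2 scale (SE 0.0844, adjusted p = 2.61e-17). In QGP-1, SSTR2, a somatostatin receptor, rose by 2.22 (SE 0.245, adjusted p = 1.66e-05), and it fell in BON-1 (-0.75, SE 0.260, adjusted p = 0.0263). Of the 20 markers, 19 were tested in each line, of which 7 rose and 3 fell in QGP-1 (36.8% and 15.8%, against 17.3% and 17.7% of all genes) and 2 rose and 6 fell in BON-1 (10.5% and 31.6%, against 17.0% and 18.3%). LYZ, the lysozyme gene from the leukocyte list, rose in QGP-1 (0.64, SE 0.116, adjusted p = 8.06e-04).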
